A study of Mus musculus with 10 samples.

Results

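The 5 genes Gcg, Sst, Ppy, Ghrl and Cartpt were followed across 5 groups of mouse samples. Gcg, Sst, Ppy and Ghrl encode the islet hormones glucagon, somatostatin, pancreatic polypeptide and ghrelin, and Cartpt encodes CART, a peptide that endocrine cells and neurons store beside their main transmitter or hormone. The members were chosen by name, and each was found through a probe that carries its symbol and no other. Each of the 5 had exactly 1 such probe, out of 34967 discovery probes that name 18069 genes.

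Islets hold several endocrine cell types, each known by the hormone it stores. Alpha cells make proglucagon, which the prohormone convertase PC2 cuts to glucagon, whereas intestinal L cells cut the same precursor with PC1/3 to GLP-1. Delta cells make somatostatin, which acts on neighbouring cells through a family of receptors and holds back the release of insulin and glucagon. PP cells make pancreatic polypeptide, and epsilon cells, which are common in the fetal pancreas and scarce in the adult islet, make ghrelin. Ghrelin needs an octanoyl group, put on by ghrelin O-acyltransferase, to act on its classical receptor. Somatostatin, ghrelin and CART are also made by gut endocrine cells or by neurons, so none of them marks the pancreas by itself.

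Total RNA was hybridized to 1-colour CodeLink Mouse Whole Genome arrays, 2 arrays per group. Dox(+) EBs are floating embryoid bodies of tet-pdx1/ngn3 Ainv18 ES cells, harvested on day 13, which had received Dox at 1 µg/ml from day 4 to switch on a Pdx1-IRES-Ngn3 cassette in the hprt locus. Dox(-) EBs carried the same cassette without Dox, and both kinds of EB had received activin A at 50 ng/ml from day 2 and BMP4 at 50 ng/ml with bFGF at 10 ng/ml from day 4, before replating on day 6. The other groups were the mouse insulinoma line βTC6, whole islets, and E15.5 pancreas. The EBs come from engineered ES cells of 1 parental line and are mixtures of cell types, and 1 line of the EB labels names activated Notch4, whereas the sample source and the study's methods name Pdx1 and Ngn3. The labels give the islets no age, strain or sex, and the study's own material calls them adult in 1 place and gives them the embryonic day of the pancreas samples in another, so their age is not settled here. The 2 arrays of a group are called biological replicates, but whether each is its own culture or dissection is not stated, so p measures the spread between these arrays only.

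Levels are scaled intensities, on which the median discovery probe of an array is 1. A level is comparable between arrays for 1 probe and not between probes. Between 66.0% and 74.3% of the discovery probes were above background on an array, and 63 to 117 were saturated, meaning that the scanner had reached its limit and the true level was at least the one given. Slide numbers grouped the EB arrays together, βTC6 cells and islets together, and E15.5 pancreas apart, so slide batch and tissue cannot be told apart except between Dox(+) and Dox(-) EBs and between βTC6 cells and islets. The probes named Pdx1 and Neurog3 (Ngn3), the genes of the cassette, did not pass the test between the EB groups. Pdx1 was not above background on either array of Dox(+) EBs or Dox(-) EBs, and was only 0.524 and 0.482 in islets, and Neurog3 was 0.447 and 0.557 in Dox(+) EBs against 0.458 and 0.52 in Dox(-) EBs (log2 difference 0.03, adjusted p = 0.962). Where these probes lie relative to the cassette was not looked at. The study stained Pdx1 and Ngn3 protein as positive controls after Dox, in EBs of the same cells under another protocol and at a later day. By RT-PCR it also reported Dox-induced Pdx1 RNA, in its tet-pdx1 cells under a further protocol. Ins1 and Ins2 had no probe of their own symbol, so insulin is not described.

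Gcg, on chromosome 2 (GRCm38.p6, 62474530-62483653, minus strand), measured 41.1 and 41.9 in Dox(+) EBs, against 0.451 and 0.432 in Dox(-) EBs. βTC6 cells read 119 and 157, E15.5 pancreas read 93.2 and 97.3, and the first islet array read 310 at a saturated spot. On the second islet array it read 243, but that spot was marked irregular as well as saturated and was left out of the fit. The glucagon probe was thus just above background in EBs without Dox, and the 2 arrays of every group lay apart from those of every other group. The mean was 41.5 ± 0.553 in Dox(+) EBs, against 0.441 ± 0.013 in Dox(-) EBs (SD, n = 2 each), a 94-fold difference (log2 difference 6.55, SE 0.12, adjusted p = 3.37e-10). In Dox(+) EBs the level was 2.3-fold lower than in E15.5 pancreas (log2 -1.20, adjusted p = 1.88e-05), 3.3-fold lower than in βTC6 cells (log2 -1.72, adjusted p = 1.09e-06) and at least 7.47-fold lower than in islets (adjusted p = 9.69e-08). The order from high to low was islets, βTC6 cells, E15.5 pancreas, Dox(+) EBs and Dox(-) EBs, and all neighbours differed past the test, but the step between βTC6 cells and E15.5 pancreas (log2 0.52, adjusted p = 0.00358) turned round under quantile normalization (log2 -0.32, adjusted p = 0.0162).

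Sst, on chromosome 16 (23889573-23891342, minus strand), was detected in EBs with Dox and not in those without. It measured 119.9 and 103 in Dox(+) EBs and was not above background on either array of Dox(-) EBs. βTC6 cells read 211 and 229, E15.5 pancreas read 26.2 and 26.6, and islets read 291 and 286 at saturated spots. Somatostatin RNA in Dox(+) EBs therefore lay above the embryonic pancreas and below islets, with no overlap between arrays. A fold is a bound where neither array of the lower group was above background, or where both arrays of the higher group were saturated, and the lower level is then set at the weakest detected signal of its arrays. The mean of 112 ± 11.7 in Dox(+) EBs (SD, n = 2) was at least 406-fold higher than the level in Dox(-) EBs (log2 difference 8.69, SE 0.0897, adjusted p = 4.98e-12), on levels floored at 0.27. It was 4.21-fold higher than the 26.4 ± 0.233 of E15.5 pancreas (adjusted p = 2.03e-08) and at least 2.59-fold lower than in islets (adjusted p = 2.24e-07). Against βTC6 cells it was 1.98-fold lower (log2 -0.98, adjusted p = 3.49e-06), but under quantile normalization the difference turned to 0.15 and missed the threshold (adjusted p = 0.117). The order was islets, βTC6 cells, Dox(+) EBs, E15.5 pancreas and Dox(-) EBs, with every step past the test as deposited.

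Cartpt, on chromosome 13 (99898483-99910179, minus strand), followed Sst between the EB groups but not across the tissues. It measured 33.5 and 34.2 in Dox(+) EBs and was not above background on either array of Dox(-) EBs. βTC6 cells read 57.1 and 51.2, islets read 8.51 and 8.05, and E15.5 pancreas read 6.84 and 6.54. CART RNA was thus higher in Dox(+) EBs than in both primary tissues, and none of its spots was saturated. The difference to Dox(-) EBs was at least 123-fold (log2 6.97, SE 0.0906, adjusted p = 2.61e-11). The mean of 33.8 ± 0.477 in Dox(+) EBs was 4.09-fold higher than the 8.28 ± 0.328 of islets (adjusted p = 1.16e-08) and 5.06-fold higher than the 6.69 ± 0.214 of E15.5 pancreas (SD, n = 2 each, adjusted p = 9.29e-09). Against βTC6 cells it was 1.6-fold lower (log2 -0.68, adjusted p = 6.87e-05), but quantile normalization turned this to 0.11 with an adjusted p of 0.315. Islets exceeded E15.5 pancreas by 1.24-fold (adjusted p = 0.0119), a call lost without islet replicate 1 (adjusted p = 0.0628) or without E15.5 pancreas replicate 2 (adjusted p = 0.0717).

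The upstream sequences of Sst, Cartpt and Gcg, the 3 genes at or near background in Dox(-) EBs, are shown as the 250 bases before the start site of the RefSeq promoter table (GRCm38.p6, minus strand, 5′ to 3′). They cover chr16:23890845-23891094 for Sst, chr13:99900684-99900933 for Cartpt and chr2:62483654-62483903 for Gcg. For Sst and Cartpt the table's start site lies inside the gene's annotated span. Capitals mark TGACGTCA, which is the cyclic AMP response element, TATAAA, which is the TATA box, and TAAT, the core that homeodomain proteins read, with matches on both strands.
Sst: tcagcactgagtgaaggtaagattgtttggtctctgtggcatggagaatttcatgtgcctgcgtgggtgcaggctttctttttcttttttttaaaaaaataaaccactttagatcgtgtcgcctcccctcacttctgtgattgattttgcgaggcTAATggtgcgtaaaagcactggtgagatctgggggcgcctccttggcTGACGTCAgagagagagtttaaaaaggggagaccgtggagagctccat
Cartpt: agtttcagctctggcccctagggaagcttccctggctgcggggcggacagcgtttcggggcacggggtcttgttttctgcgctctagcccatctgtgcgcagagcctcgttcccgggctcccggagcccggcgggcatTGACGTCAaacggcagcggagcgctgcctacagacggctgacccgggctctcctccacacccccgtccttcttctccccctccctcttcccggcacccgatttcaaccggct
Gcg: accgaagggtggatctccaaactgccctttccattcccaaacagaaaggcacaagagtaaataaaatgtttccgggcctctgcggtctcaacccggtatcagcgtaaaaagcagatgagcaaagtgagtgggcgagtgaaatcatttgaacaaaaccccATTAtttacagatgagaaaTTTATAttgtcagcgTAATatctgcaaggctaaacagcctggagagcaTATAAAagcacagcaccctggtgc
The 8-letter cyclic AMP response element stood at -48 to -41 of Sst and at -112 to -105 of Cartpt, counted from the start site, and was found in neither Gcg nor the windows of Ppy and Ghrl. It is held by 508 of the 32817 windows of 250 bases in the table (1.55%). TATAAA stood at -24 to -19 of Gcg, again on the opposite strand at -72 to -67, and at -31 to -26 of Ppy, and 12.4% of all windows hold it. TAAT or its reverse ATTA occurred at -57 to -54 and -91 to -88 of Gcg and at -95 to -92 of Sst, and 54.9% of all windows hold it. Ghrl held none of these motifs in the outermost of its 4 windows. A match says only that these letters are there.

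Ppy, on chromosome 11 (102099931-102101319, minus strand), was measured above background in every group and saturated in islets. It measured 10.4 and 10.3 in Dox(+) EBs, against 1.10 and 1.05 in Dox(-) EBs. βTC6 cells read 55.7 and 70.1, E15.5 pancreas read 6.41 and 6.43, and islets read 291 and 233, both saturated. The EB arrays with and without Dox did not overlap, and those with Dox lay just above the embryonic pancreas. The mean of 10.3 ± 0.106 in Dox(+) EBs was 9.59-fold the 1.08 ± 0.034 of Dox(-) EBs (SD, n = 2 each, log2 difference 3.26, SE 0.127, adjusted p = 1.36e-08). It was 1.61-fold higher than in E15.5 pancreas (adjusted p = 0.00084), 6.05-fold lower than in βTC6 cells (adjusted p = 2.93e-08) and at least 25.2-fold lower than in islets (adjusted p = 3.53e-10). The order matched that of Sst, and all 4 steps between neighbours passed the test.

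Ghrl, on chromosome 6 (113716119-113719911, minus strand), had an order of its own. It measured 38.5 and 31.6 in Dox(+) EBs, against 4.45 and 3.73 in Dox(-) EBs. E15.5 pancreas read 21.4 and 19 and islets read 4.33 and 4.48, whereas 1 array of βTC6 cells read 0.527 and the other was not above background. Ghrelin RNA was therefore highest in Dox(+) EBs and in the embryonic pancreas, and it was above background on both arrays of EBs without Dox. The mean was 35 ± 4.89 in Dox(+) EBs, against 4.09 ± 0.504 in Dox(-) EBs (SD, n = 2 each), an 8.56-fold difference (log2 3.10, SE 0.248, adjusted p = 3.07e-06). Dox(+) EBs exceeded islets by 7.93-fold (log2 2.99, adjusted p = 1.48e-06), and they exceeded βTC6 cells by a log2 difference of 6.53 (adjusted p = 4.58e-09), which rests partly on the floor because 1 βTC6 array was not above background, and was 5.12 with a floor of 1. The 1.73-fold excess over E15.5 pancreas passed the test (log2 0.79, SE 0.248, adjusted p = 0.018), but not without Dox(+) EB replicate 1 (adjusted p = 0.145), without E15.5 pancreas replicate 1 (adjusted p = 0.0589) or without its replicate 2 (adjusted p = 0.114). Dox(-) EBs and islets were the only neighbours in any of the 5 orders that did not differ beyond their spread (log2 -0.11, SE 0.248, adjusted p = 0.722).

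**Figure D1:**
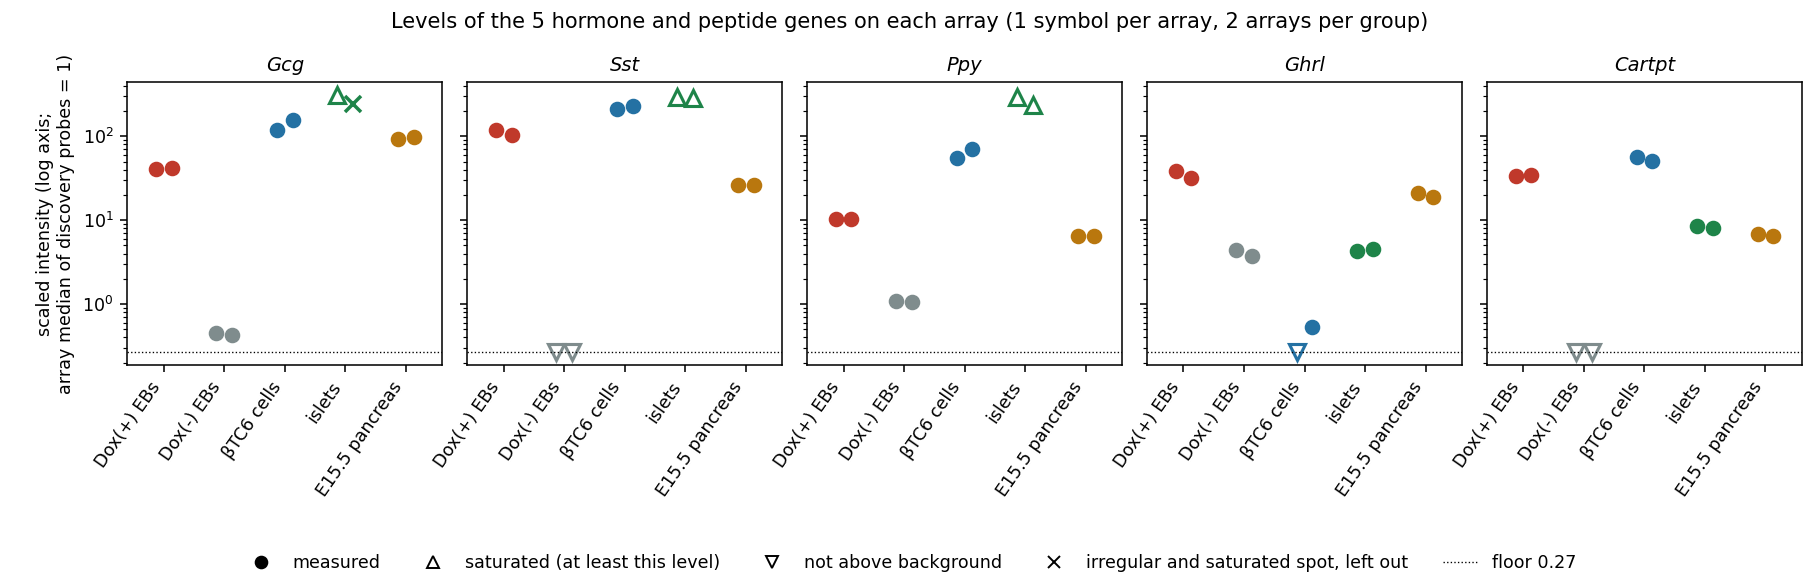
Scaled intensity of Gcg, Sst, Ppy, Ghrl and Cartpt on each of the 10 arrays, on a log axis, with 1 symbol per array and the 5 groups side by side. All 5 genes lie above Dox(-) EBs in the Dox(+) columns, Ghrl is highest in Dox(+) EBs, and the islet spots of Gcg, Sst and Ppy are saturated.

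Set side by side, 5 of 5 members rose with Dox between the EB groups, where 20.7% of the 28109 probes tested were called higher and 22.5% lower. The study had already listed these 5 as raised by Dox, and they were chosen with earlier results known, so this count is no test of enrichment. The median log2 difference of the members was 6.55, beside -0.03 over all probes tested. In these bulk RNA samples, more cells of a type and more RNA per cell cannot be told apart. Against E15.5 pancreas, 4 members were higher in Dox(+) EBs and 1, Gcg, was lower, where 33.1% of probes were called higher and 26.9% lower. Against islets, 2 members, Ghrl and Cartpt, were higher in Dox(+) EBs and 3 were lower, where 36.4% of probes were called higher and 31.6% lower. Against βTC6 cells, 1 member, Ghrl, was higher in Dox(+) EBs and 4 were lower, where 25.5% of probes were called higher and 37.4% lower, and 2 of these 4, Sst and Cartpt, turned higher and missed the test under quantile normalization. That scaling moved the median of all probes between Dox(+) EBs and βTC6 cells to 0, from -0.11 as deposited. These 4 comparisons share the Dox(+) arrays.

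**Figure D2:**
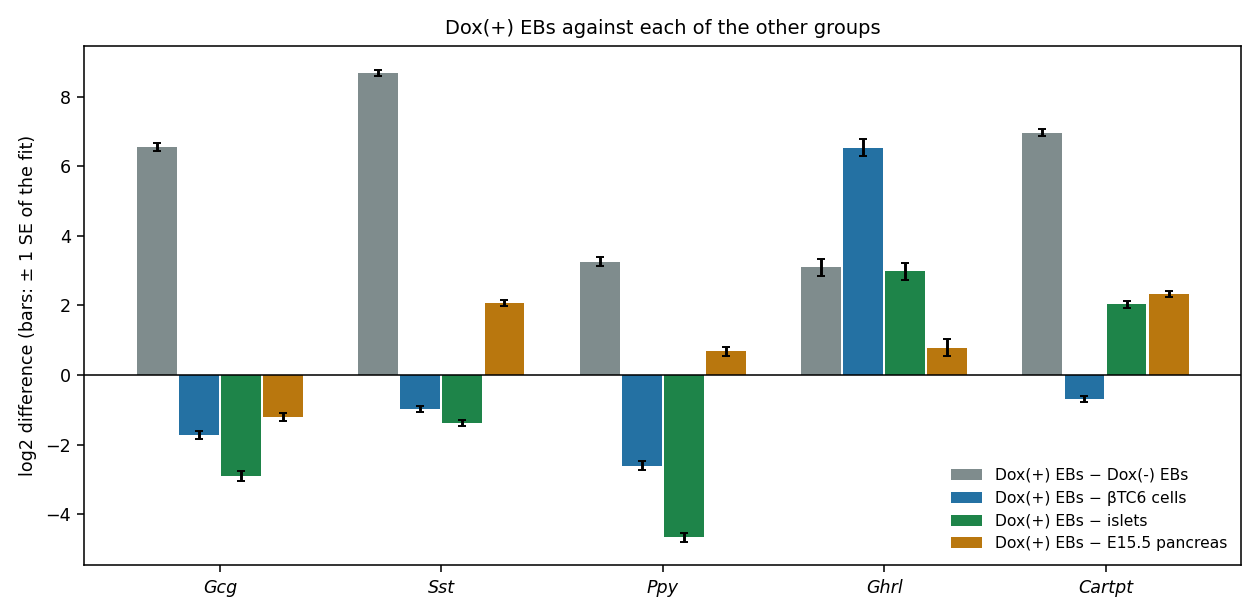
Log2 difference of Dox(+) EBs minus each of the 4 other groups for the 5 genes, with ± 1 SE of the fit across all arrays. Every difference to Dox(-) EBs lies between 3.10 and 8.69, whereas those to islets span -4.66 for Ppy to 2.99 for Ghrl. The differences of Sst and Cartpt to βTC6 cells turn round under quantile normalization, and bars that meet background or a saturated spot are bounds.

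EBs without Dox stood below the pancreatic samples in nearly every case. Against βTC6 cells, 1 member, Ghrl, was higher in Dox(-) EBs and 4 were lower, where 28.7% of probes were called higher and 37.9% lower. Against islets, 4 were lower in Dox(-) EBs and Ghrl did not pass the test, where 37.7% of probes were called higher and 32.3% lower. Against E15.5 pancreas, all 5 were lower in Dox(-) EBs, by 4.95-fold for Ghrl to 216-fold for Gcg among those measured in both, where 33.6% of probes were called higher and 24.8% lower. Between the pancreatic samples, βTC6 cells were lower than islets in 4 members and higher in 1, Cartpt, by 6.53-fold (adjusted p = 1.6e-09), where 39.1% of probes were called higher and 27.0% lower. βTC6 cells were higher than E15.5 pancreas in 4 members and lower in 1, Ghrl (log2 -5.74 with 1 βTC6 array at the floor, -4.33 with a floor of 1, adjusted p = 8.74e-09), where 41.8% of probes were called higher and 23.7% lower, and of the 4 Gcg turned lower under quantile normalization. Islets were higher than E15.5 pancreas in 4 members and lower in 1, Ghrl, where 32.5% of probes were called higher and 32.5% lower. Ghrl averaged 4.4 ± 0.107 in islets and 20.2 ± 1.66 in E15.5 pancreas (SD, n = 2 each), a 4.58-fold difference (adjusted p = 1.75e-05).

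A list of 15 receptors held those of the members and of related islet and gut peptides, with Insr, the insulin receptor, among them. Of these, 12 had a probe and 9 were tested, and 4 rose with Dox, 1 fell and 4 did not pass, where 20.7% of all probes tested were higher and 22.5% lower. The median log2 difference over the 9 was 0.05, close to the -0.03 of all probes tested. Gcgr, the glucagon receptor, measured 16.7 and 14.4 in Dox(+) EBs, against 0.686 and 0.844 in Dox(-) EBs, a 20.4-fold difference (adjusted p = 3.59e-09). Its level in Dox(+) EBs was not distinguished from the 17.7 and 15.7 of islets (log2 -0.11, SE 0.14, adjusted p = 0.532), whereas E15.5 pancreas read 1.27 and 1.12 and βTC6 cells were at background. Glucagon and its receptor thus both rose with Dox, in RNA of the whole EB.

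Among the somatostatin receptors, Sstr3 measured 4.66 and 3.82 in Dox(+) EBs, against 0.361 and 0.311 in Dox(-) EBs (12.6-fold, adjusted p = 1.17e-08), with the second of the Dox(-) spots not above background. βTC6 cells reached 38.4 and 30.8, and islets 18.2 and 17.4. Sstr2 measured 4.89 and 4.01 in Dox(+) EBs, against 1.52 and 1.41 in Dox(-) EBs (3.02-fold, adjusted p = 4.93e-06), and islets read 1.76 and 1.82 (log2 1.30 for Dox(+) EBs minus islets, adjusted p = 8.87e-06). Sstr4 measured 17.5 and 14.7 in Dox(+) EBs, against 7.9 and 8.64 in Dox(-) EBs (1.95-fold, adjusted p = 0.00206, at most 0.0701 under the alternatives tried). Sstr5 was not above background on any of the 10 arrays, and Sstr1 had no measured array outside the EBs, so neither was tested. Npy4r, the receptor of pancreatic polypeptide, read 0.278 and 0.329 in Dox(+) EBs, against 0.52 and 0.304 in Dox(-) EBs (log2 -0.40, SE 0.244, adjusted p = 0.225). Npy1r, a receptor of neuropeptide Y, was the 1 lower member, at 2.3 and 2.33 in Dox(+) EBs against 3.34 and 3.23 in Dox(-) EBs (adjusted p = 0.00428). Ghsr, the ghrelin receptor, and Gpr160, proposed as a CART receptor, had no probe of their own symbol and were not analysed here.

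Of 11 listed genes that cut or modify prohormones, 9 were tested, and 7 rose with Dox, 1 fell and 1 did not pass, where 20.7% of all probes tested were higher and 22.5% lower. The median log2 difference of the 9 was 1.92, beside -0.03 over all probes. Mboat4, the ghrelin O-acyltransferase, measured 16.2 and 15.3 in Dox(+) EBs, against 0.633 on the 1 measured array of Dox(-) EBs, since the other spot was left out (24.9-fold, adjusted p = 2.16e-08). It was 0.701 and 0.731 in E15.5 pancreas and not above background on any array of βTC6 cells or islets. The RNA of ghrelin and that of the enzyme that acylates it were thus both highest in Dox(+) EBs among the 5 groups, with the limits given above for Ghrl over E15.5 pancreas, although the embryonic pancreas, with 21.4 and 19 for Ghrl, had little Mboat4. Mboat4 was 22-fold higher in Dox(+) EBs than in E15.5 pancreas (adjusted p = 5.87e-09).

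Pcsk1, which encodes PC1/3, measured 3.99 and 3.33 in Dox(+) EBs, against 0.418 and 0.509 in Dox(-) EBs (7.9-fold, adjusted p = 3.2e-08), and 46.0 and 45.0 in islets. Scg5 encodes 7B2, the chaperone that PC2 needs, and measured 34.6 and 29.7 in Dox(+) EBs, against 0.426 and 0.364 in Dox(-) EBs (81.4-fold on floored levels, adjusted p = 2.07e-10), with the second of the Dox(-) spots not above background and a log2 difference of 5.00 to 6.54 under the alternatives tried, against 6.35. Pcsk1n, which encodes the PC1/3 inhibitor proSAAS, measured 72.4 and 64.6 in Dox(+) EBs, against 9.75 and 11 in Dox(-) EBs (6.61-fold, adjusted p = 4.67e-09). Cpe, the carboxypeptidase that trims the cut ends, was saturated at 202 and 204 in Dox(+) EBs, against 58.3 and 49.2 in Dox(-) EBs (at least 3.79-fold, adjusted p = 2.42e-07). Pam, which amidates pancreatic polypeptide among others, measured 98.4 and 71.4 in Dox(+) EBs, against 35.2 and 36.4 in Dox(-) EBs (2.34-fold, adjusted p = 3.4e-05). Pcsk2, the gene of PC2, had no probe of its own symbol and was not analysed here. The 1 lower gene was Ctsl, a lysosomal cathepsin (log2 -0.56, adjusted p = 0.00154), the 1 not past the test was Cpd, another carboxypeptidase (log2 -0.24, adjusted p = 0.345), and the seventh higher one was Furin (log2 0.60, adjusted p = 0.0271), whose call was lost in 8 of 21 alternatives, with an adjusted p of up to 0.152.

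Transcription factors tied to the hormone cell types moved the same way where they passed. Of 18 listed, 15 were tested, and 10 rose with Dox, 0 fell and 5 did not pass, beside the same 20.7% and 22.5% of all probes. The median log2 difference of the 15 was 2.35, beside -0.03 over all probes. Pax6, which is needed for alpha cells and binds the glucagon promoter, measured 37.2 and 35.2 in Dox(+) EBs and was not above background in Dox(-) EBs (at least 128-fold, adjusted p = 2.87e-11). Hhex, which delta cells need, measured 8.74 and 7.16 in Dox(+) EBs, against 0.598 and 0.607 in Dox(-) EBs (13.1-fold, adjusted p = 1.01e-08), whereas islets read 2.13 and 1.78 and E15.5 pancreas 3.66 and 3.75. Isl1, a factor of all islet endocrine cells, measured 44.6 and 38.2 in Dox(+) EBs, against 1.64 and 1.57 in Dox(-) EBs (25.7-fold, adjusted p = 2.07e-10), and islets read 43.3 and 44.3 (log2 -0.09 for Dox(+) EBs minus islets, adjusted p = 0.477). Neurod1 was 49.5-fold higher (adjusted p = 8.47e-11), Insm1 at least 89.6-fold (adjusted p = 1.6e-10) and Nkx2-2, whose loss in mice turns islet cells to ghrelin cells, at least 32.4-fold (adjusted p = 6.85e-10). The 5 that did not pass were Rfx6 (log2 0.40, adjusted p = 0.0541), Creb1 (log2 -0.18, adjusted p = 0.141), which encodes a protein that binds the cyclic AMP response element, Pou3f4, Pdx1 and Neurog3. None of the genes called in these 3 lists turned its sign between Dox(+) and Dox(-) EBs under quantile normalization.

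**Figure D3:**
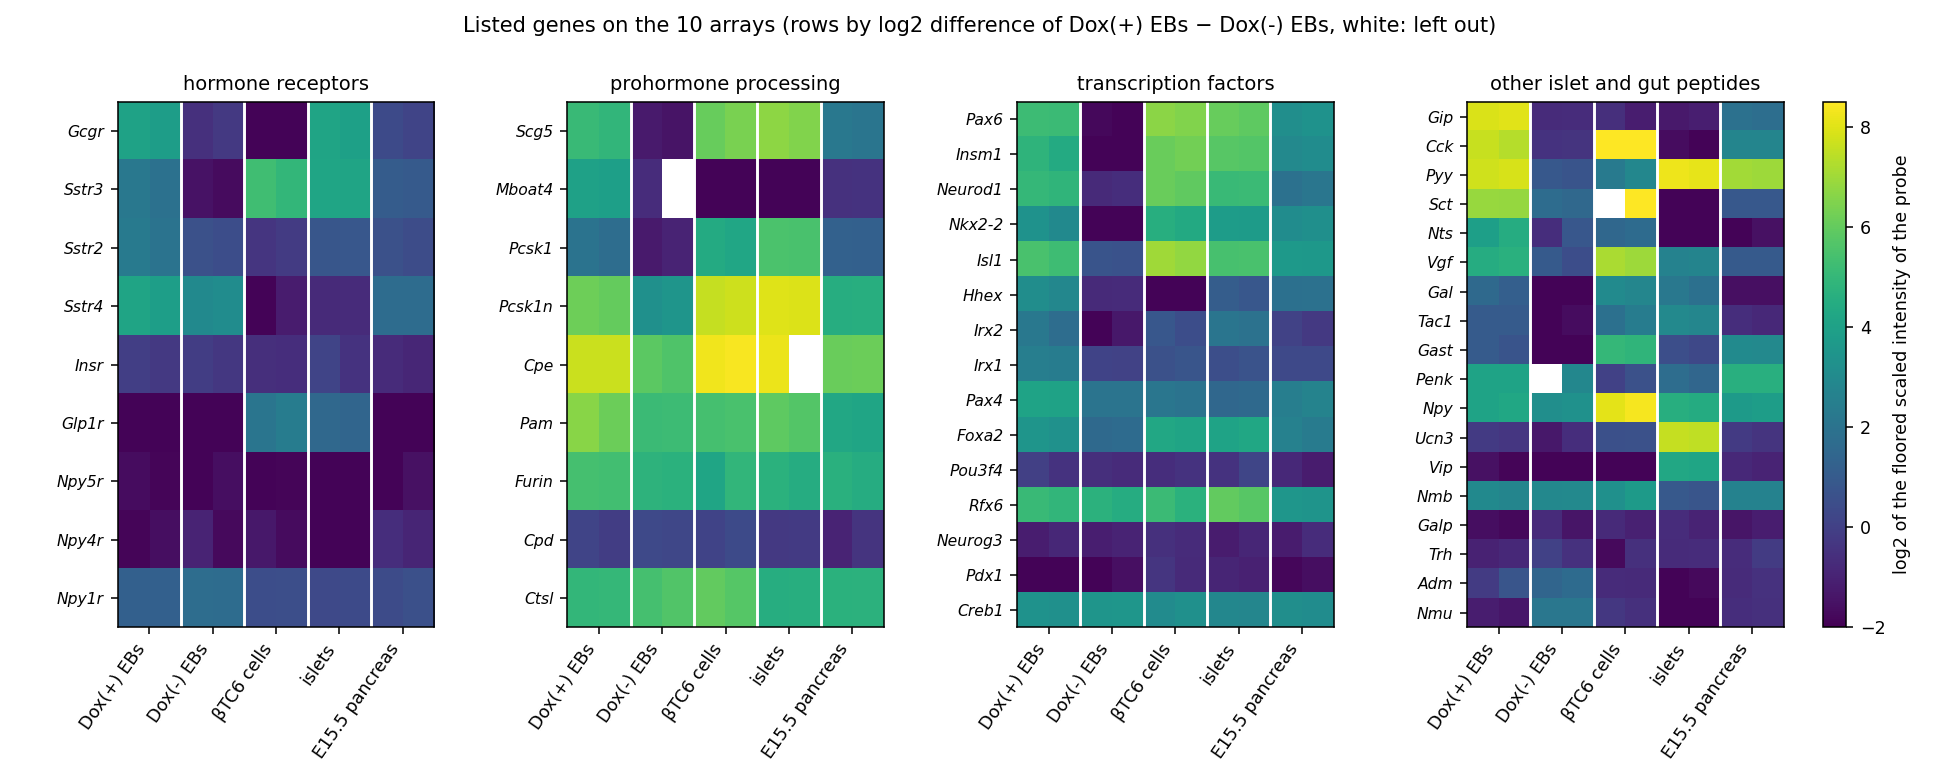
Log2 of the floored scaled intensity of the tested receptors, processing genes, transcription factors and other islet and gut peptides, with 2 columns per group and white cells for spots left out. Mboat4 is bright only in the Dox(+) columns, whereas Gcgr reads 16.7 and 14.4 in Dox(+) EBs and 17.7 and 15.7 in islets, and colours compare arrays within a row.

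The genes whose log2 level followed each member most closely over the arrays were taken from 17444 to 17486 probes with a symbol. The 10 arrays are 5 groups of 2, so these correlations mostly set 5 group means side by side, and the order of near groups can still differ. Insm1 and Pax6 (r = 0.994 each) and Hepacam2 (r = 0.992) were closest to Sst, although all 3 averaged more in βTC6 cells than in islets and Sst did not. For Insm1 and Pax6 that excess turned round under both quantile scalings, and the islet spots of Sst were saturated. Cacna1d, a voltage-gated calcium channel of islet cells (r = 0.994), Reep2 (r = 0.990) and Scgn, the calcium sensor secretagogin (r = 0.986), were closest to Gcg over 9 arrays. Pcsk1 (r = 0.995), Slc36a1 and Mbd2 (r = 0.991 and 0.990) were closest to Ppy, but Mbd2 averaged only 0.272 in Dox(-) EBs, near the floor, to 1.25 in islets. Trib2 (r = 0.994), the neuronal microtubule gene Dcx (r = 0.988) and Fzd3 (r = 0.987) were closest to Cartpt, and Dcx averaged 44.1 in Dox(+) EBs, against the floor of 0.27 in Dox(-) EBs, with 68.6 for βTC6 cells, 4.56 for islets and 5.51 for E15.5 pancreas. Slc16a7, a monocarboxylate transporter (r = 0.994), Gm17396 (r = 0.985) and Dusp16 (r = 0.984) were closest to Ghrl. The 5 sets of 3 shared no gene. Trib2 in Dox(-) EBs and Dusp16 in βTC6 cells averaged 0.27, which is the floor. Islet spots of Gcg, Sst and Ppy entered these correlations at saturated values.

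Markers of other cell types that these samples can hold also differed between the groups, and are summed here over those measured on all 10 arrays, with saturated spots at their deposited value. The summed level of 9 measured islet endocrine markers of 12 was 202 and 191 in Dox(+) EBs, against 6.63 and 6.74 in Dox(-) EBs, with 4 of the 9 at background there, and islets reached 1000 and 911. Of 9 gut enteroendocrine markers 8 had a probe, and the 6 that could be summed, without Sct and Tph1, came to 668 and 675 in Dox(+) EBs, against 4.58 and 5.63 in Dox(-) EBs, whereas βTC6 cells gave 396 and 417, islets 301 and 282, and E15.5 pancreas 152 and 143. Saturated spots of Gip, Cck and Pyy enter these sums, so they set no order between Dox(+) EBs, βTC6 cells and islets. Taken singly against βTC6 cells, Dox(+) EBs were higher for 3 of the 8 and lower for 4. Over all probes tested, 25.5% were called higher and 37.4% lower in that comparison. Of 16 neuronal markers 14 had a probe, and the 13 summed came to 204 and 185 in Dox(+) EBs, against 9.02 and 8.79 in Dox(-) EBs, where 11 of the 14 were at background. The insulinoma line βTC6 gave a larger neuronal sum, of 279 and 308. Islets gave 126 and 120, whereas E15.5 pancreas gave 27.3 and 26.7. The single neuronal markers were split between Dox(+) EBs and βTC6 cells, with 6 of 14 higher in Dox(+) EBs, 7 lower and 1 not past the threshold. The shares over all probes were again 25.5% higher and 37.4% lower. Whether these markers stand for neurons in the EBs was not tested. Gcg, Sst, Ghrl and Cartpt are made in gut endocrine cells or neurons as well as in islets, and the part of these cells in the members' levels was not tested. Acinar markers (9 summed of 14 listed) came to 2120 and 1810 in islets, more than the 1290 and 1220 of E15.5 pancreas, against 37.0 and 39.6 in Dox(+) EBs, so the islet RNA carried exocrine transcripts, and their part in the islet levels was not tested. The sum for liver and gut endoderm (9 summed of 10 listed) went the other way in EBs. It came to 71.2 and 59.8 in Dox(+) EBs against 517 and 491 in Dox(-) EBs. The single markers were split, since 7 of the 10 fell with Dox whereas 3 rose, where 22.5% of all probes tested were lower and 20.7% higher. A lower sum with Dox was also seen for 5 duct markers, at 45.2 and 44.2 against 135 and 132 in Dox(-) EBs. Only 2 of these 5 fell past the threshold and 3 missed it, beside the same 22.5% of all probes lower. Their median log2 difference was -0.18, beside -0.03 over all probes tested. For 8 markers of mesenchyme and blood the sum was 297 and 310 in Dox(+) EBs against 750 and 779 in Dox(-) EBs. Here 5 markers fell, 1 rose and 2 missed the threshold, beside the same 22.5% of all probes lower and 20.7% higher.

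**Figure D4:**
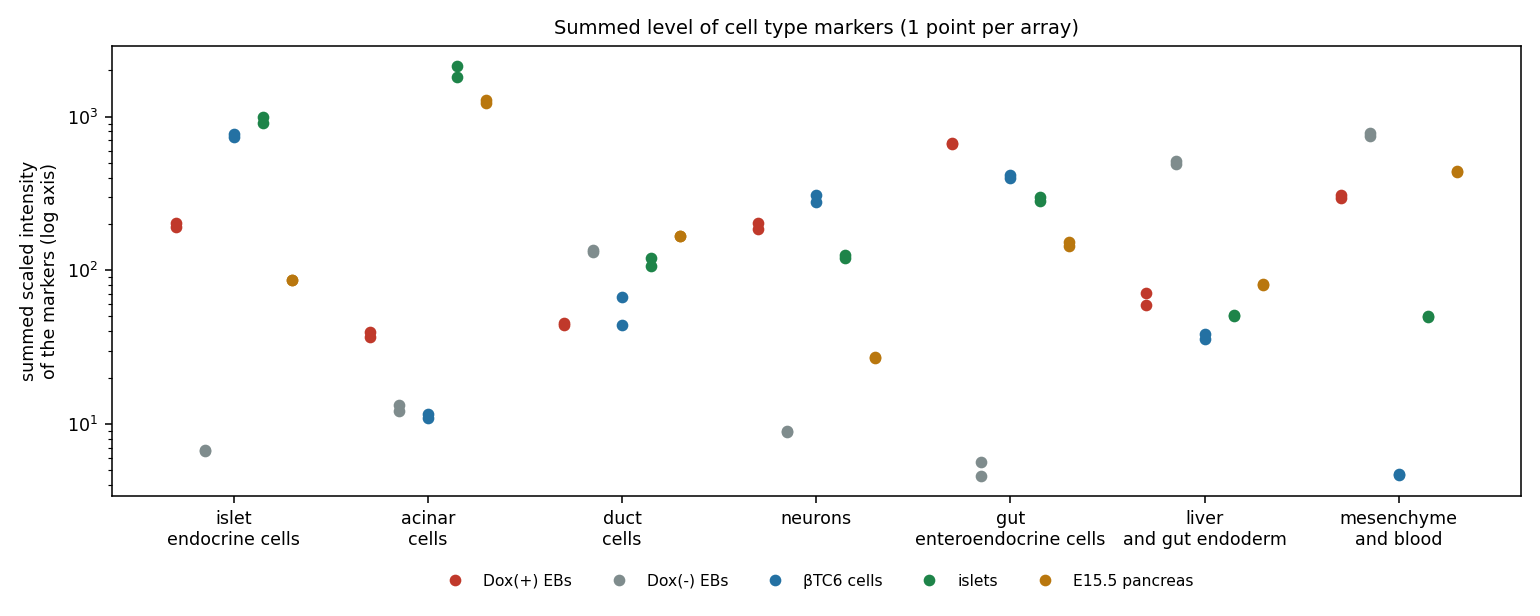
Summed scaled intensity of 7 sets of cell type markers on a log axis, with 1 point per array and the groups side by side within each set. The 6 enteroendocrine markers summed reach 668 and 675 in Dox(+) EBs against 4.58 and 5.63 in Dox(-) EBs, acinar markers reach 2120 and 1810 in islets, saturated spots stand at their deposited value, and neuronal markers are lowest in Dox(-) EBs (9.02 and 8.79).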

How the data were processed

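Total RNA of 10 samples was measured on CodeLink arrays. The deposited values are intensities: the authors scanned each array with CodeLink Expression Analysis 4.1.0.29054, took the local background median off each spot's mean brightness and scaled the result so that the 34967 discovery probes have a median of 1. The signal strength score deposited beside them was not used. The authors' GeneSpring 7 step and their removal of invalid probes were not repeated. Each array has 36227 spots, and 1260 control spots were left out. Masked, contaminated and irregular spots were treated as missing, whereas saturated spots stayed in as bounds. Probe names came from the deposited annotation, updated by gene ID for 21487 of the 21615 probes with 1 symbol, and 681 probes had several symbols and 12671 none.

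Levels were floored at 0.27 and log2 transformed. limma 3.58.1 in R 4.3.3 (lmFit, eBayes with trend and robust) fitted 1 mean per group to all 10 arrays, with 5 residual and a median of 5.22 prior degrees of freedom. The 28109 probes above background on every measured array of at least 1 group and measured in every group were tested, p was adjusted by Benjamini-Hochberg over them, and 0.05 was the threshold. No test is named in the study's methods. The fit was tested on simulated data. The number of arrays limits the precision.

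The members and lists were chosen with earlier results of these data known. The text names all 5 members, from each list up to 6 genes with the smallest adjusted p between Dox(+) and Dox(-) EBs, the members' receptors, Mboat4, Pcsk1 and Pcsk2, and the 3 genes most like each member by Pearson correlation. Other genes, named where a count was 5 or fewer, were picked with their values in view. The alternatives were 2 quantile scalings (1 after normexp with an offset of 50), floors of 0.1 and 1, 2 other filters on background, eBayes without trend and robust weights, the 2 groups compared alone, a replicate block, contaminated and irregular spots kept, the mean of all probes of a gene, and leaving out each array. Promoter windows and coordinates are RefSeq's for GRCm38.p6. Figures were drawn with matplotlib 3.10.9, and tables were handled with pandas 2.3.3 and numpy 2.4.6 under Python 3.11.15.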

Additional observations from a re-analysis of the deposited data

How the results depend on the processing

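Counted per member, comparison and alternative, 986 values kept their side of the threshold, 8 kept the direction and lost the call, and 6 turned round. A turn was counted only where the difference passed the test as deposited or under the alternative, so uncalled differences that changed sign are among the 986. The 6 were all between βTC6 cells and another group. Under quantile normalization Dox(+) EBs minus βTC6 cells became 0.15 for Sst (adjusted p = 0.117) and 0.11 for Cartpt (adjusted p = 0.315), and βTC6 cells minus E15.5 pancreas became -0.32 for Gcg (adjusted p = 0.0162). After normexp and quantile normalization the same differences were 0.15 (adjusted p = 0.136), 0.11 (adjusted p = 0.443) and -0.32 (adjusted p = 0.01). The count of members past the test between Dox(+) EBs and βTC6 cells was then 3 under both scalings, against 5. Quantile normalization moved the median of all probes to 0 for βTC6 cells minus islets (0.124 as deposited) and to 0.046 for βTC6 cells minus E15.5 pancreas (0.215 as deposited), and the share of calls that were higher in βTC6 cells than in E15.5 pancreas was 53.2%, against 63.8% as deposited. With the filter that a probe be above background on all arrays, only Ppy could be tested, so the count was 1 in each of the 10 comparisons and 4 of 4 steps between neighbouring groups, and between Dox(+) and Dox(-) EBs 3965 of 18034 probes were higher and 4785 lower, against 5819 and 6335 of 28109.

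Leaving out 1 array at a time gave 4 to 5 members past the test in 8 comparisons, 3 to 4 between Dox(-) EBs and islets, 3 to 5 between islets and E15.5 pancreas, and 14 to 19 of the steps between neighbours. Without islet replicate 1, Gcg had no measured islet array and was not tested, and 3 of the 4 other members passed between islets and E15.5 pancreas. The 8 lost calls were 4 of Ghrl between Dox(+) EBs and E15.5 pancreas (also with no background filter, adjusted p = 0.107), 3 of Cartpt between islets and E15.5 pancreas (also with a floor of 0.1, adjusted p = 0.063) and 1 of Gcg between βTC6 cells and E15.5 pancreas (those 2 groups alone, adjusted p = 0.0544). Replicate numbers do not pair the samples: deviations of same-numbered arrays correlated at -0.069 to 0.063. With the replicate block the count stayed 5 in 9 comparisons, 4 between Dox(-) EBs and islets and 19 of 20 for the steps, so it changed no call. Each member has 1 probe, so averaging probes changed nothing by construction. Signals near background or at saturation limit Sst and Cartpt in Dox(-) EBs and Gcg, Sst and Ppy in islets to bounds.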

Other observations

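Other islet and gut peptides were also measured, on a list of 25 of which 20 had a probe and 18 were tested. With Dox, 12 of the 18 rose, 2 fell and 4 did not pass the test, where 20.7% of all probes tested were higher and 22.5% lower, with a median log2 difference of 2, beside -0.03 over all probes tested. Gip, the incretin of intestinal K cells, was saturated at 243 and 259 in Dox(+) EBs, against 0.614 and 0.631 in Dox(-) EBs (at least 403-fold, adjusted p = 1.15e-10), whereas islets read 0.413 and 0.459 and E15.5 pancreas 3.8 and 3.44. Cck, the hormone of intestinal I cells, read 194 and 160 in Dox(+) EBs, the first of them saturated, against 0.726 and 0.749 in Dox(-) EBs (238-fold with the saturated spot at its value, and so a lower limit, adjusted p = 2.8e-11). Sct, the gene of secretin, read 118 and 115 in Dox(+) EBs, against 3.26 and 2.93 in Dox(-) EBs (37.7-fold, adjusted p = 3.15e-10), and neither Sct nor Cck was above background on either islet array. Pyy, a relative of pancreatic polypeptide made in L cells and in islets, was saturated at 213 and 231 in Dox(+) EBs, against 1.86 and 1.66 in Dox(-) EBs (at least 126-fold, adjusted p = 1.62e-10), and was saturated in islets as well.

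The 2 that fell were Nmu, the gene of neuromedin U, at 0.443 and 0.384 in Dox(+) EBs against 4.5 and 4.46 in Dox(-) EBs (10.9-fold lower, adjusted p = 2.79e-08), and Adm, the gene of adrenomedullin, at 0.896 and 1.7 in Dox(+) EBs against 2.69 and 3.17 in Dox(-) EBs (log2 -1.24, adjusted p = 0.00239, up to 0.107 under the alternatives tried). Gip, Cck and Sct were higher in Dox(+) EBs than in islets and in E15.5 pancreas, as were Vgf and Nts of the same list. Against βTC6 cells, however, Dox(+) EBs were lower for Cck and Sct (log2 -1.06 and, with 1 measured βTC6 array, -1.79), a call that Cck lost under both quantile scalings. The βTC6 levels of Cck and Sct lay above the lowest saturated levels of those arrays (257 and 254), so saturation may enter both differences. Against E15.5 pancreas the excess was at least 69.4-fold for Gip (adjusted p = 1.31e-09), 25.7-fold for Cck with its saturated spot at its value (adjusted p = 6.36e-10) and 62.4-fold for Sct (adjusted p = 2.46e-10), and no alternative tried turned the direction or lost these 3 calls.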
